A study of Mus musculus and synthetic construct with 30 samples.

Results

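Solute carriers are membrane proteins that move ions, nutrients and metabolites into and out of cells. The genes described here carry the symbol of 1 of 7 solute carrier families, Slc5, Slc7, Slc12, Slc13, Slc16, Slc22 or Slc47, followed by the letter a and a member number, and 81 of the 26759 genes in the RNA-seq files do so. The families hold 11 (Slc5), 15 (Slc7), 9 (Slc12), 5 (Slc13), 14 (Slc16), 25 (Slc22) and 2 (Slc47) genes. The rule reads symbols alone and no measured value. The libraries come from a study of *Peril*, a long intergenic noncoding RNA gene on mouse chromosome 3, in which knockout (KO) was compared with wild type (WT) by polyA RNA-seq. The KO allele is Periltm1.1Vlcg, in which a *LacZ* reporter takes the place of most of the gene body, and WT and KO are on a mixed C57BL/6J/129S6 background after N3 to C57BL/6J, with no Neo cassette left. Mouse embryonic stem cells (mESC) gave 3 WT and 3 KO libraries, all male, and for each genotype the libraries are wells of 1 clone grown in 2i medium on feeder fibroblasts. Kidneys of embryos at E14.5 came from litter 43, with 3 WT embryos (2 male, 1 female) and 3 KO embryos (1 male, 2 female). Ganglionic eminence with olfactory bulb (GE/OB), the ventral forebrain region that gives rise to inhibitory neurons, came at E14.5 from litter 46, with 2 WT embryos, both male, and 2 KO embryos, both female.

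The families divide transport by substrate. Slc7 proteins carry amino acids, some of them only when paired with the heavy chains encoded by *Slc3a1* and *Slc3a2*, and Slc12 proteins move chloride together with sodium or potassium. Slc16 proteins carry lactate, pyruvate and related molecules, Slc5 proteins couple sugars, vitamins or iodide to sodium, Slc13 proteins carry sulfate and citric acid cycle intermediates, and Slc22 and Slc47 proteins carry organic cations and anions, many of them in the tubules of the mature kidney.

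Promoter sequences of members differ widely in base composition, and 4 are shown to make this visible, each as the 250 bases before a RefSeq start site in GRCm38.p6, on the minus strand and 5′ to 3′. Capitals in the first 3 mark GGGCGG or its reverse complement, the core of the GC box. In the last they mark TGATGCAA or its reverse complement, the core of the amino acid response element bound by Atf4. *Slc22a17* (chr14:54913133-54913382) and *Slc22a23* (chr13:34345219-34345468) were the highest members of their family in GE/OB, *Slc7a1* (chr5:148399905-148400154) encodes an arginine and lysine carrier that was high in mESC, and *Slc7a11* (chr3:50443614-50443863) encodes the cystine carrier.
*Slc22a17*: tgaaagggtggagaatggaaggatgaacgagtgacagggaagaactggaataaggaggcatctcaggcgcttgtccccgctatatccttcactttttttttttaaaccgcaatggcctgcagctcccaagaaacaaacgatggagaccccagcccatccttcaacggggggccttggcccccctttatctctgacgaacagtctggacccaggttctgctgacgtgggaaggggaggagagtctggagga
*Slc22a23*: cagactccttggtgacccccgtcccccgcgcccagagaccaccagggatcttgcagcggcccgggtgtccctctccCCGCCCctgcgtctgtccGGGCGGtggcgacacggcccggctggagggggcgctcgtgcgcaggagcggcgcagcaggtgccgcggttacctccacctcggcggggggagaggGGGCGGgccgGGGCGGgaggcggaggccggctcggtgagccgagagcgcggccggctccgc
*Slc7a1*: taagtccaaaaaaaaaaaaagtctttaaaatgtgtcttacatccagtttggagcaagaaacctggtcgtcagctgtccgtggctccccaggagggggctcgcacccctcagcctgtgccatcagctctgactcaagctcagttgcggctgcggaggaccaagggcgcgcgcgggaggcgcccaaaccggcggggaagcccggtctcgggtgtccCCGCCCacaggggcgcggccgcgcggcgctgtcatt
*Slc7a11*: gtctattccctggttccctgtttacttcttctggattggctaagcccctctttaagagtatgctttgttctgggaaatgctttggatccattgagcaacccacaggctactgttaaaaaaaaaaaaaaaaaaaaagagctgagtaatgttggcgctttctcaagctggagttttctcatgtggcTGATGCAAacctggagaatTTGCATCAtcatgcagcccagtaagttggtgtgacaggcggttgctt
The GC content of these windows was 53.6% (*Slc22a17*), 78.4% (*Slc22a23*), 62.4% (*Slc7a1*) and 43.2% (*Slc7a11*). They held 8, 32, 21 and 2 CG dinucleotides, in the same order. GGGCGG occurred 0 times in the *Slc22a17* window, 4 times in that of *Slc22a23* and 1 time in that of *Slc7a1*, and the amino acid response core occurred 2 times in that of *Slc7a11*. RefSeq held 76 promoters for 60 of the 81 members, with a median GC content of 55.4% beside 52.4% over all 32851 promoters, and a median of 6 CG dinucleotides in both. On either strand, GGGCGG was present in 43.4% of member promoters and 32.7% of all, TGATGCAA in 2.63% (*Slc7a7* and *Slc7a11*) and 0.792%, and the E-box CACGTG in 13.2% and 6.02%. These are descriptions of the windows, and 1 gene can have several promoters.

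The libraries held 17544707 to 45924887 summed counts. Levels are given in TPM, the share of a library's transcripts that belongs to a gene after correction for length. *Peril* itself was at 0.33 to 0.57 TPM in WT wells and 0.16 to 0.24 TPM in KO wells, and was listed at 0 in every kidney and GE/OB library. The *LacZ* reporter reached 71.6 ± 2.0 TPM over the 3 KO wells (mean ± SD) and 45.1 ± 0.96 TPM over the 2 KO forebrain samples, with 0.1 TPM or less in each of their WT libraries. Kidney libraries held 0.297 ± 0.19 TPM of it in WT embryos and 0.11 ± 0.036 TPM in KO embryos (mean ± SD, 3 libraries each), so the reporter does not check the genotype there. Markers matched the labelled tissues: 5 pluripotency genes summed to at least 2592 TPM in mESC and at most 11.8 TPM elsewhere, 5 nephron progenitor genes to 289 to 368 TPM in the kidney, and 6 interneuron genes to 936 to 1001 TPM in GE/OB. In bulk tissue, fewer cells of a type and less RNA per cell cannot be told apart.

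Of the 81 members, 58 passed the edgeR filter on low counts and were tested, and the other 23 had at most 0.76 TPM in any library. *Slc22a26* and *Slc22a27* had 0 counts in all 16 libraries, which allows up to 3 counts over a tissue, for counting error only. In total 45 members reached a mean of 1 TPM in at least 1 group of tissue and genotype. Over the 6 mESC, 6 kidney and 4 GE/OB libraries, 31 members had a mean of at least 1 TPM in mESC, 32 had one in kidney, 35 had one in GE/OB and 21 had one in all 3 tissues. The label epithelial describes these genes by what they are known for rather than by where they were high here. Many carriers of the mature tubule were among the members that stayed below 1 TPM in the kidney: *Slc5a2* (glucose), *Slc12a1* and *Slc12a3* (sodium and chloride), *Slc22a2*, *Slc22a6*, *Slc22a8* and *Slc22a12* (organic ions and urate) and both Slc47 genes. The 7 proximal tubule markers summed to 15.1 to 17.5 TPM in the 3 WT kidneys and 20.1 to 23.9 TPM in the 3 KO kidneys, with *Slc34a1* at a mean of 0.09 TPM in WT. The same list summed to 13.3 to 14.9 TPM in WT and 15.4 to 17.0 TPM in KO GE/OB, so its sum is not particular to the kidney.

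**Figure D1:**
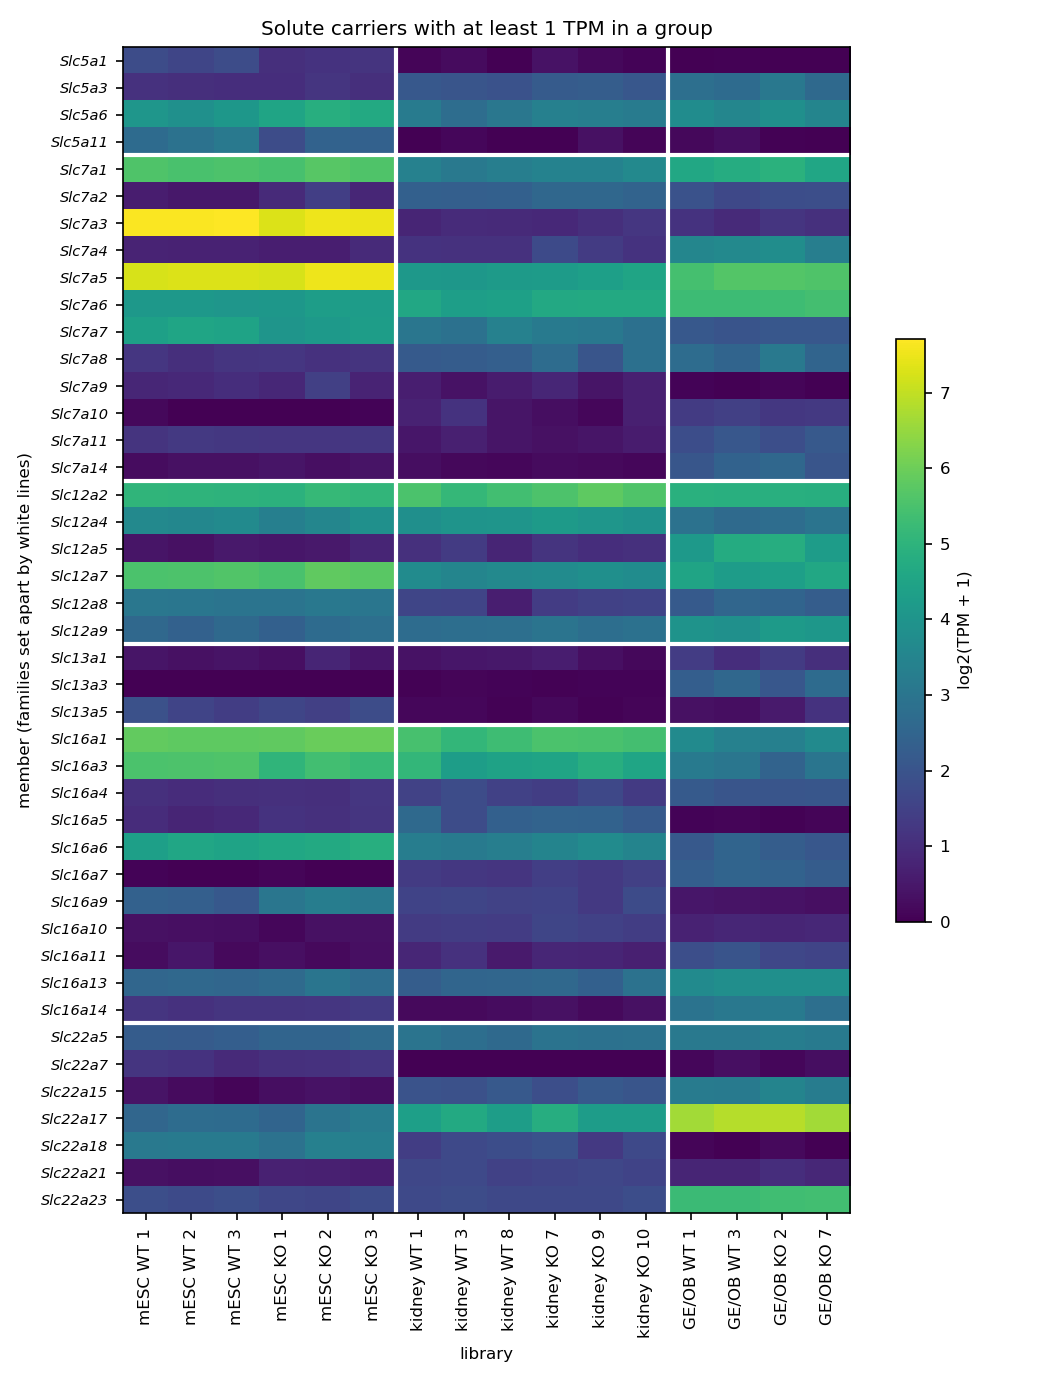
Heat map of log2(TPM + 1) for members with a mean of at least 1 TPM in a group (rows, by family, without those not reported here) in each of the 16 libraries (columns). *Slc7a3* and *Slc7a5* are brightest in the 6 mESC libraries and *Slc22a17* in the 4 GE/OB libraries, and libraries of 1 tissue resemble each other.

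Tissues were compared on counts in edgeR (quasi-likelihood), giving WT and KO equal weight, and a member was called high in a tissue when its adjusted p was under 0.05 and its level at least 2-fold above both other tissues. On the TPM scale the typical gene was itself higher in GE/OB: the median difference of GE/OB minus mESC over all tested genes was 0.43 on log2(TPM + 1) and 0.08 in the count fit, and that of kidney minus GE/OB −0.40 and 0.05. Folds between tissues below are from the count fit. They can be smaller for GE/OB than the TPM levels beside them, or put the tissues in another order. Tissue cannot be told apart from litter or from culture. Of the 58 members tested, 16 (27.6%) were high in mESC, where 15.8% of all tested genes were, 13 (22.4%) in GE/OB, where 17.4% were, and 6 (10.3%) in the kidney, where 12.1% were. By the same limits, 17 members (29.3%) were low in mESC beside 22.7% of all genes, 13 (22.4%) in GE/OB beside 12.1%, and 5 (8.62%) in the kidney beside 5.49%. The other 23 members were high in none of the tissues, and 5 differed by less than 2-fold in all 3 pairs. The kidney had the fewest members in either direction, as it had the fewest of all tested genes. Of the 35 members called high, 7 stayed below a mean of 1 TPM in every group, namely *Slc13a2* and *Slc47a2* in mESC, *Slc16a8*, *Slc22a4* and *Slc22a8* in GE/OB, and *Slc22a3* and *Slc47a1* in the kidney.

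Amino acid carriers of the Slc7 family took the largest share of carrier RNA in mESC. Their summed TPM was 389 to 459 in the 6 mESC libraries (median 450.1), 61.4 to 78.8 in the 6 kidney libraries (median 70.8), and 135 to 155 in the 4 GE/OB libraries. The ranges of the 3 tissues did not overlap. *Slc7a3*, a carrier of arginine and other cationic amino acids, ranged from 158 to 210 TPM in mESC (median 192), from 0.74 to 1.32 TPM in the kidney and from 0.91 to 1.28 TPM in GE/OB. It was 198-fold higher in mESC than in the kidney, its next tissue (log2 difference 7.63, SE 0.064, adjusted p = 1.9e-21 from edgeR). *Slc7a5*, the light chain of the leucine carrier, was at 151 to 184 TPM in mESC (median 158), 15.9 to 21.6 TPM in the kidney (median 17.7) and 42.4, 48.9, 49.6 and 47.6 TPM in GE/OB, and was 5.84-fold higher in mESC than in GE/OB. Its heavy chain partner *Slc3a2* had 156 ± 4.1 TPM in WT mESC, 31.7 ± 1.6 TPM in WT kidney (SD, n = 3 each) and 52.6 ± 0.83 TPM in WT GE/OB (SD, n = 2), the same order of tissues.

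*Slc7a1* was at 43.5 to 50.9 TPM in mESC (median 46.8), 7.72 to 11.4 TPM in the kidney and 22.6 to 29.8 TPM in GE/OB, with no overlap between tissues, and *Slc7a7*, which exports cationic amino acids, at 15.3 to 22.3, 6.22 to 9.50 and 2.99 to 3.35 TPM. Both were called high in mESC. In contrast, *Slc7a2*, the third cationic carrier, was called high in the kidney. It had 4.07 to 4.94 TPM there (median 4.36), 2.22 to 2.84 TPM in GE/OB and 0.40 to 1.68 TPM in mESC. *Slc7a4*, a family member of little-known substrate, *Slc7a10*, a carrier of serine and glycine, and *Slc7a14*, a protein of intracellular membranes, were called high in GE/OB, with means of 10.97, 1.52 and 3.89 TPM there and no mean above 1.43 TPM elsewhere. *Slc7a6*, a glutamine and arginine exchanger, was steadier between tissues than these, at 15.5 to 18.8 TPM in mESC, 19.2 to 24.6 TPM in the kidney and 38.0 to 41.6 TPM in GE/OB, and all 3 pairs were within 2-fold on counts. *Slc7a8*, another light chain, had means of 1.24, 4.38 and 5.61 TPM in mESC, kidney and GE/OB, and *Slc7a11* 1.35, 0.408 and 2.96 TPM. On counts kidney minus GE/OB was 0.22 on the log2 scale for *Slc7a8* (SE 0.17, adjusted p = 0.24 from edgeR), the other order and not past the threshold. *Slc7a9*, the light chain of the tubular cystine carrier, had 0.985, 0.517 and 0.035 TPM.

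In the Slc12 family, summed TPM was 111 to 134 in mESC, 79.6 to 105 in kidney libraries and 141 to 153 in GE/OB, and the ranges of each pair of neighbours in that order did not overlap, since mESC lay above the kidney and below GE/OB. *Slc12a2*, the sodium, potassium and chloride cotransporter that loads cells with chloride, had the highest mean of all 81 members in the kidney. It ranged from 34.2 to 54.9 TPM there (median 46.1), from 30.0 to 35.0 TPM in mESC (median 32.0) and from 27.7 to 28.7 TPM in GE/OB. Kidney and mESC differed by 1.35-fold (adjusted p = 3.03e-06 from edgeR), below the 2-fold limit, and their ranges overlapped. *Slc12a5*, the neuronal potassium and chloride exporter, reached 16.8, 26.0, 26.9 and 18.4 TPM in GE/OB, 0.74 to 1.56 TPM in the kidney and 0.28 to 0.74 TPM in mESC, and was 11.7-fold higher in GE/OB than in the kidney. Of the other potassium and chloride cotransporters, *Slc12a7* was highest in mESC (44.2 to 55.6 TPM), at 3.67-fold over GE/OB, and was called high there. *Slc12a4* had its highest mean in the kidney (13.5 to 17.6 TPM) without passing the 2-fold limit. *Slc12a8* was called high in mESC (6.83 to 7.57 TPM), with 1 of the 6 kidney libraries, from WT embryo 8, at 0.56 TPM and the rest at 1.57 to 2.09 TPM. *Slc12a9* had means of 5.06, 6.11 and 15.4 TPM in mESC, kidney and GE/OB.

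**Figure D2:**
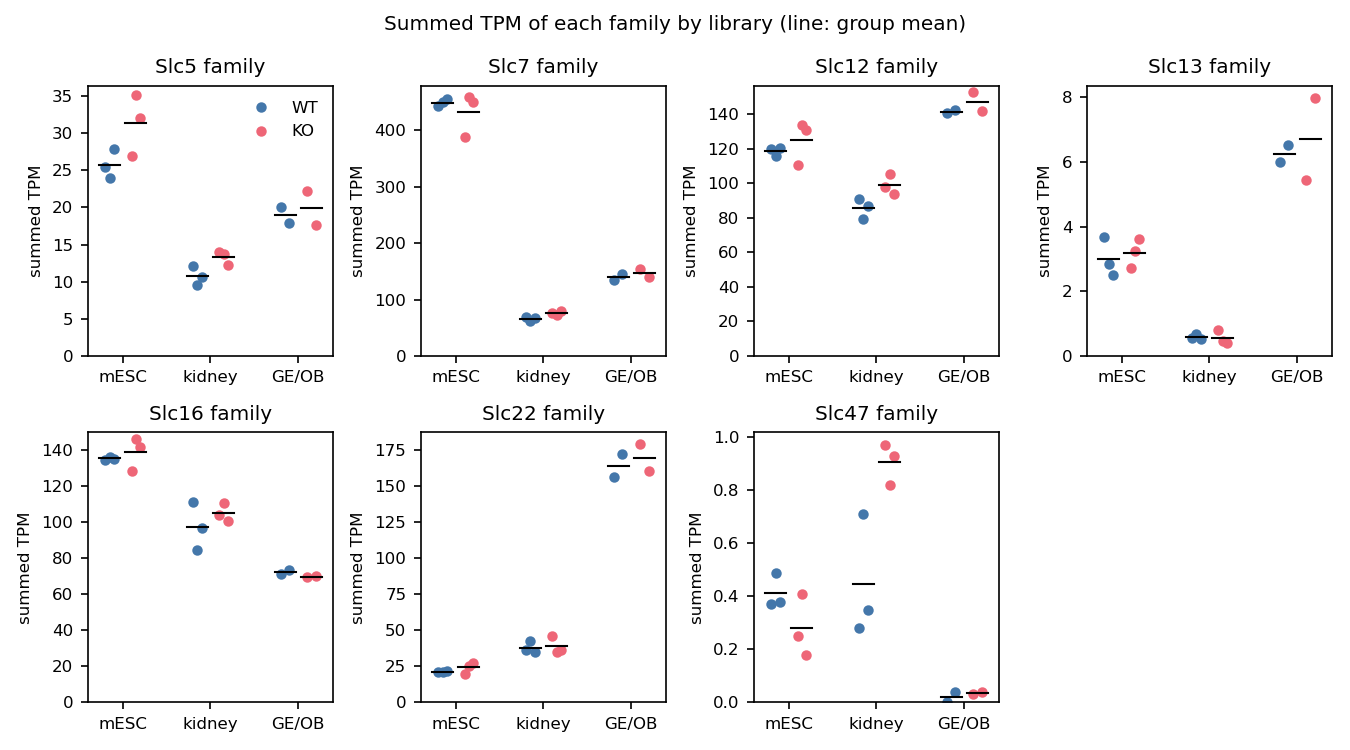
Summed TPM of the members of each family (vertical axes, each from 0) in every library, by tissue, with WT in blue, KO in red and a line at the group mean. The Slc7 sums are highest in mESC, at 389 to 459, and the Slc22 sums in GE/OB, at 156 to 179.

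In the Slc16 family the lactate and pyruvate carriers *Slc16a1* and *Slc16a3* had their highest means in mESC and their lowest in GE/OB. *Slc16a1* was at 54.4 to 60.8 TPM in mESC (median 56.4), 33.3 to 44.9 TPM in the kidney (median 42.5) and 9.29 to 11.9 TPM in GE/OB, with no overlap. *Slc16a3*, the lactate exporter of glycolytic cells, was at 32.3 to 46.9 TPM in mESC (median 43.05), 18.8 to 33.3 TPM in the kidney and 4.49 to 7.88 TPM in GE/OB, and the first 2 ranges overlapped. Both were called low in GE/OB. *Bsg*, which encodes the chaperone that brings these carriers to the membrane, had 453 ± 4.4 TPM in WT mESC, 300.4 ± 29 TPM in WT kidney (SD, n = 3 each) and 239 ± 7.0 TPM in WT GE/OB (SD, n = 2).

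Several other members of the family had other orders. *Slc16a7*, a pyruvate carrier, had at most 0.07 TPM in mESC, 1.30 to 1.77 TPM in kidney libraries and 3.71 to 4.60 TPM in GE/OB. *Slc16a10*, an aromatic amino acid carrier, and *Slc16a5* were called high in the kidney, at 1.54 to 2.07 and 2.45 to 5.17 TPM, where *Slc16a5* in GE/OB did not exceed 0.08 TPM. *Slc16a14* was called high in GE/OB at 6.00 to 7.98 TPM and *Slc16a11* at 1.98 to 3.04 TPM. *Slc16a6*, a carrier of ketone bodies and taurine, was called high in mESC (19.3 to 27.5 TPM beside 7.92 to 12.1 TPM in the kidney), as was *Slc16a9*, a carnitine carrier (3.34 to 8.58 TPM beside 1.44 to 2.37 TPM). *Slc16a13* and *Slc16a4* had their highest means in GE/OB, at 13.01 and 3.23 TPM, without passing the 2-fold limit.

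The Slc22 family held the member that stood highest in GE/OB. *Slc22a17*, a receptor-like member that takes up the iron-binding protein lipocalin 2, had a mean of 108 TPM over the 4 GE/OB libraries, with 115.41 TPM in WT embryo 3, 116.81 and 100.02 TPM in the KO embryos and a value just under the last in WT embryo 1. It had 18.2 to 27.3 TPM in the kidney (median 19.0) and 4.64 to 8.17 TPM in mESC (median 5.56). *Slc22a23*, an orphan carrier, had 37.6, 37.6, 39.8 and 41.1 TPM in GE/OB and between 2.07 and 2.62 TPM in the 12 other libraries. Neither range in GE/OB overlapped the rest, and on counts the members were 3.40-fold and 10.6-fold above the next tissue. Kidney and mESC did not differ past the threshold in *Slc22a23* (log2 difference 0.02, SE 0.06, adjusted p = 0.73 from edgeR). Together these 2 genes and *Slc22a15*, a carrier of zwitterions that had a mean of 8.78 TPM, took 93.5% of the Slc22 RNA in GE/OB. *Slc22a5*, the carnitine carrier, was present in all tissues, with means of 4.32 TPM in mESC, 6.25 TPM in the kidney and 8.02 TPM in GE/OB. On counts *Slc22a5* was instead higher in the kidney than in GE/OB (log2 difference 0.24, SE 0.075, adjusted p = 0.0062 from edgeR), below the 2-fold limit. *Slc22a21*, a carnitine carrier related to it, was called high in the kidney at 1.82 to 2.28 TPM. Both had counts that were not whole in all 16 libraries, which marks reads that fit several genes, and so the split between them is uncertain. *Slc22a18* was called high in mESC at 6.51 to 9.32 TPM and had at most 0.14 TPM in GE/OB. *Slc22a7*, an organic anion carrier of the liver, was called high in mESC at 0.91 to 1.35 TPM and was listed at 0 in all kidney libraries. Of the 25 Slc22 members, 18 stayed below 1 TPM in every group.

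The remaining families were led by single genes. In the Slc5 family *Slc5a6*, which takes up biotin and pantothenate, gave 69.5% of the summed TPM in mESC, 66.0% in kidney libraries and 60.3% in GE/OB. It ranged from 13.5 to 27.5 TPM, 5.76 to 9.33 TPM and 10.4 to 13.4 TPM in these tissues, and mESC did not overlap the kidney or GE/OB. *Slc5a3*, the myo-inositol carrier, had means of 1.08 TPM in mESC, 3.35 TPM in the kidney and 6.10 TPM in GE/OB. *Slc5a1*, the intestinal glucose carrier, and *Slc5a11*, a second inositol carrier, were called high in mESC, at 1.05 to 2.50 and 2.45 to 7.64 TPM, with at most 0.29 TPM elsewhere. In the Slc13 family *Slc13a3*, a dicarboxylate carrier, had 3.99, 5.03, 3.25 and 5.55 TPM in GE/OB, at most 0.07 TPM in the kidney and was listed at 0 in mESC. *Slc13a5*, the citrate carrier, had 1.66 to 2.76 TPM in mESC and 0.04 to 0.13 TPM in the kidney, and 1 GE/OB library, from KO embryo 7, stood apart at 1.17 TPM beside 0.22 to 0.48 TPM. *Slc13a1*, the sulfate carrier, was called high in GE/OB at 1.01 to 1.58 TPM. The Slc47 family, which exports organic cations, summed to at most 0.97 TPM in any library.

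KO and WT were compared within each tissue to ask which carriers move when the *Peril* gene body is lost. In mESC, 3 members rose and 2 fell. The 5 were *Slc16a9* (carnitine), *Slc5a6* (biotin and pantothenate) and *Slc7a2* (arginine and lysine), which rose, and *Slc7a3* (arginine and lysine) and *Slc22a23* (orphan), which fell. They were 8.62% of the 58 members tested, where 6.86% of all tested genes passed an adjusted p under 0.05, and by direction 3 members rose where 2.27% of all genes did and 2 fell where 4.59% did. The median log2 fold change was 0.002 over the members and −0.03 over all genes tested. As each genotype is 1 clone, the mESC replicates are wells, and clone and genotype cannot be told apart. The variance behind each p was estimated over all 16 libraries of the 3 tissues, so it is not the spread between wells alone.

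*Slc16a9* had 4.27, 4.05 and 3.34 TPM in WT wells and 7.16, 8.58 and 7.76 TPM in KO wells. All KO wells lay above all WT wells, with a log2 fold change of 0.93 (SE 0.12, adjusted p = 0.00013 from edgeR). It is a gene of chr10:70245100-70285968 on the plus strand (GENCODE vM21). *Slc5a6*, at chr5:31036036-31048924 on the minus strand, had 15.7, 13.5 and 16.03 TPM in WT and 21.7, 27.5 and 24.6 TPM in KO. The groups did not overlap, and the log2 fold change was 0.61 (SE 0.10, adjusted p = 0.0019).

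*Slc7a2* and *Slc7a3*, both arginine carriers, moved in opposite directions. *Slc7a2*, at chr8:40862396-40922308 on the plus strand, had 0.55, 0.42 and 0.40 TPM in WT and 0.89, 1.68 and 0.79 TPM in KO, from 58 to 112 counts per library, a log2 fold change of 1.04 (SE 0.19, adjusted p = 0.0028 from edgeR). *Slc7a3*, at chrX:101079210-101086020 on the minus strand, had 202, 205 and 210 TPM in WT and 158, 182 and 180 TPM in KO, a log2 fold change of −0.32 (SE 0.057, adjusted p = 0.0025). Neither pair of groups overlapped, and in *Slc7a2* KO well 2 stood above the other KO wells. *Slc7a1* did not pass, with 45.9 ± 1.7 TPM in WT wells and 47.3 ± 3.7 TPM in KO wells (SD, n = 3 each).

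*Slc22a23*, at chr13:34179158-34345182 on the minus strand, had 2.58, 2.30 and 2.62 TPM in WT and 2.11, 2.07 and 2.42 TPM in KO. The groups overlapped in TPM, and the call rests on counts (log2 fold change −0.38, SE 0.086, adjusted p = 0.014 from edgeR). It was lost with gene length offsets in DESeq2 (adjusted p = 0.145) and on leaving out any 1 of WT wells 1 and 3 and KO wells 2 and 3 (where adjusted p ran from 0.0514 to 0.0724), while the other 4 calls held in each of these fits. Fitted on the mESC libraries alone, 12 members passed, where 3561 of 14106 genes did.

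**Figure D3:**
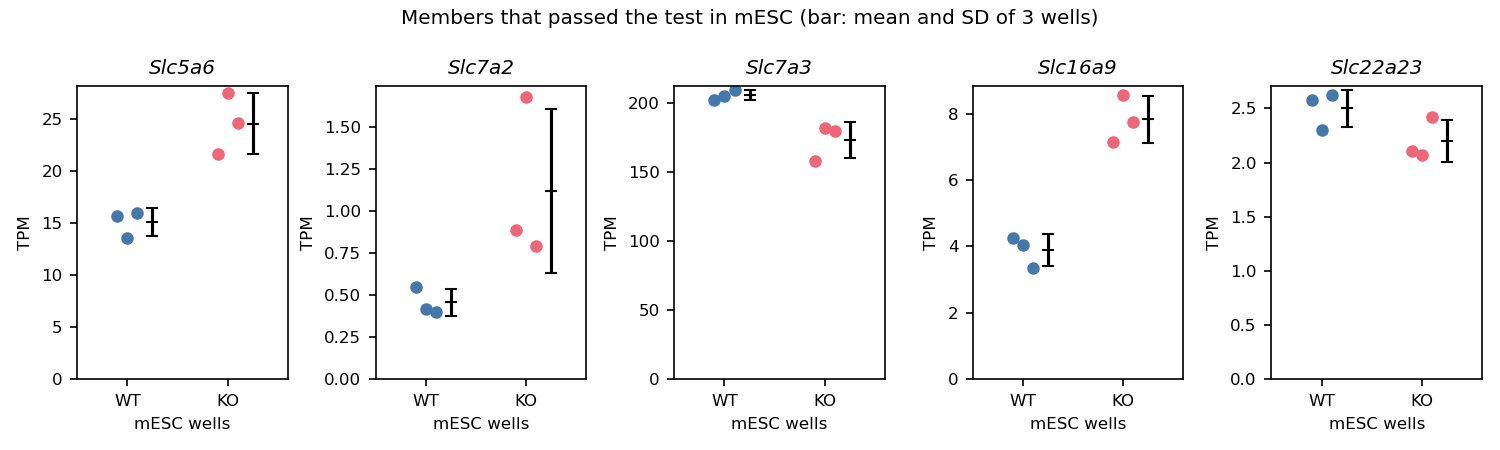
TPM of the 5 members that passed the test in mESC, in the 3 WT wells (blue) and 3 KO wells (red), with the mean and SD beside them, on axes that start at 0. The KO wells lie above the WT wells in *Slc5a6*, *Slc7a2* and *Slc16a9* and below in *Slc7a3*, and the groups overlap in *Slc22a23*.

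The kit named in the labels (TruSeq RNA, v2) does not mark strand, and 3 of the 5 called members share exon bases with genes on the other strand. *Slc5a6* shares 396 of 3991 bases with *Atraid*, which had 36.1 ± 1.5 TPM in WT and 37.4 ± 2.8 TPM in KO mESC (SD, n = 3 each, log2 fold change −0.02, adjusted p = 0.945 from edgeR). *Slc16a9* shares 491 of 3869 bases with *Gm7097*, at most 0.16 TPM in any mESC library, and 419 with *Gm9877*, for which no level is given here. *Slc7a2* shares 635 of 9135 bases with *Gm26584*, at most 0.02 TPM. Among members with tissue calls, 26.2% of the exon bases of *Slc13a2* lie over *Slc13a2os*, 21.5% of those of *Slc16a6* over *Amz2*, 17.9% of those of *Slc7a10* over *Lrp3* and 13.3% of those of *Slc7a4* over *P2rx6*, also on the other strand. For these genes the reads of both partners cannot be told apart in the shared bases. Of 5 feeder fibroblast markers, 3 fell in mESC (*Col3a1*, *Thbs1* and *Lox*), where 4.59% of all tested genes did, and 0 rose. The others, *Col6a1* and *Postn*, did not pass and had positive log2 fold changes (0.45 and 0.14). No marker had a group mean above 0.683 TPM in mESC. The summed level of the list was 1.49 to 1.89 TPM in WT and 0.70 to 0.87 TPM in KO wells, with no marker at 0. Their part in these results was not tested.

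Other members of mESC had an unadjusted p under 0.05 with edgeR and did not pass the adjustment. In all, 13 members (22.4%) had such a p, beside 21.2% of all tested genes. *Slc5a1* had 2.34 ± 0.23 TPM in WT wells and 1.16 ± 0.10 TPM in KO wells (SD, n = 3 each, adjusted p = 0.0765 from edgeR), and *Slc5a11* 6.58 ± 1.1 and 3.71 ± 1.1 TPM (adjusted p = 0.0862). *Slc16a3* had 46.2 ± 0.76 and 36.3 ± 4.2 TPM (adjusted p = 0.108), and *Slc7a7* 21.2 ± 1.2 and 16.9 ± 1.7 TPM (adjusted p = 0.0724). These 4 were lower in KO, and others of the kind were higher. *Slc22a5* had 3.80 ± 0.16 TPM in WT and 4.84 ± 0.43 TPM in KO wells (adjusted p = 0.101 from edgeR), *Slc16a6* 21.1 ± 1.8 and 25.2 ± 2.1 TPM (adjusted p = 0.113), and *Slc22a21* 0.25 ± 0.03 and 0.597 ± 0.050 TPM (adjusted p = 0.166). For *Slc22a21*, with 12.8 to 30.7 counts per well, the count fit gave 1.54-fold (log2 fold change 0.62, SE 0.26), less than the TPM ratio of 2.39. DESeq2 called *Slc5a11*, and with gene length offsets it called *Slc22a21*.

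In the kidney, 0 of 58 members passed with edgeR, where 0.223% of all tested genes did, and 6 had an unadjusted p under 0.05 (10.3%, beside 7.60% of all genes). DESeq2 called 0 as well. The 3 with the smallest p were *Slc12a1*, *Slc12a2* and *Slc47a1*. *Slc12a1*, the loop of Henle cotransporter, had 0.05, 0.01 and 0.01 TPM in WT and 0.31, 0.15 and 0.03 TPM in KO kidneys, which overlapped (log2 fold change 2.18, SE 0.77, adjusted p = 0.487). *Slc12a2* had 45.6, 34.2 and 40.8 TPM in WT and 46.6, 54.9 and 47.2 TPM in KO, with no overlap (log2 fold change 0.22, SE 0.083, adjusted p = 0.527). *Slc47a1* had 0.28, 0.71 and 0.35 TPM in WT and 0.92, 0.78 and 0.93 TPM in KO (log2 fold change 0.89, SE 0.35, adjusted p = 0.556).

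The median log2 fold change in the kidney was 0.11 over the members and 0.00 over all genes, with 39 members above and 18 below 0. In TPM, every KO kidney lay above every WT kidney for 8 of the 58 members (13.8%), where this held for 14.2% of all tested genes, and the reverse held for 0 members, where it held for 2.16%. The sum over all 81 members was 279 to 320 TPM in WT and 323 to 339 TPM in KO kidneys. Skeletal muscle markers moved with genotype in these kidneys: 3 of 4 (*Acta1*, *Actc1* and *Myh3*) fell and 0 rose, and their sum was 26.1 to 29.6 TPM in WT and 6.84 to 8.68 TPM in KO, with none at 0. The sums of proximal tubule markers, given above, did not overlap between genotypes either and were higher in KO. Their median log2 fold change was 0.43, and 0 of the 6 tested passed. Among them *Hnf4a* had 1.16 ± 0.81 TPM in WT and 2.90 ± 1.3 TPM in KO kidneys (SD, n = 3 each). *Cdh6*, the highest of the list, had 9.86 ± 1.3 and 11.8 ± 1.3 TPM, and *Aqp1* 4.54 ± 0.67 and 4.99 ± 1.5 TPM. *Fbp1*, which did not pass the filter, was lower in KO (means of 0.033 and 0.023 TPM). Erythroid markers summed to 3530 to 7746 TPM in WT and 2671 to 4361 TPM in KO. Their part in the kidney values was not tested.

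In GE/OB, 0 of 58 members passed with edgeR, where 0.063% of all tested genes did, and 0 had an unadjusted p under 0.05, beside 3.01% of all genes. DESeq2 called 0 too. The 3 smallest p belonged to *Slc12a9*, *Slc13a5* and *Slc5a7*. *Slc12a9*, a cotransporter-like protein, had 14.6 and 13.7 TPM in WT and 17.6 and 15.8 TPM in KO, *Slc13a5* 0.28 and 0.22 TPM in WT and 0.48 and 1.17 TPM in KO, and *Slc5a7*, the choline carrier of cholinergic neurons, 1.00 and 0.95 TPM in WT and 0.81 and 0.43 TPM in KO. The 3 were picked by their p, and each adjusted p from edgeR was 1.0. As the KO embryos were female and the WT embryos male, genotype cannot be told apart from sex here.

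**Figure D4:**
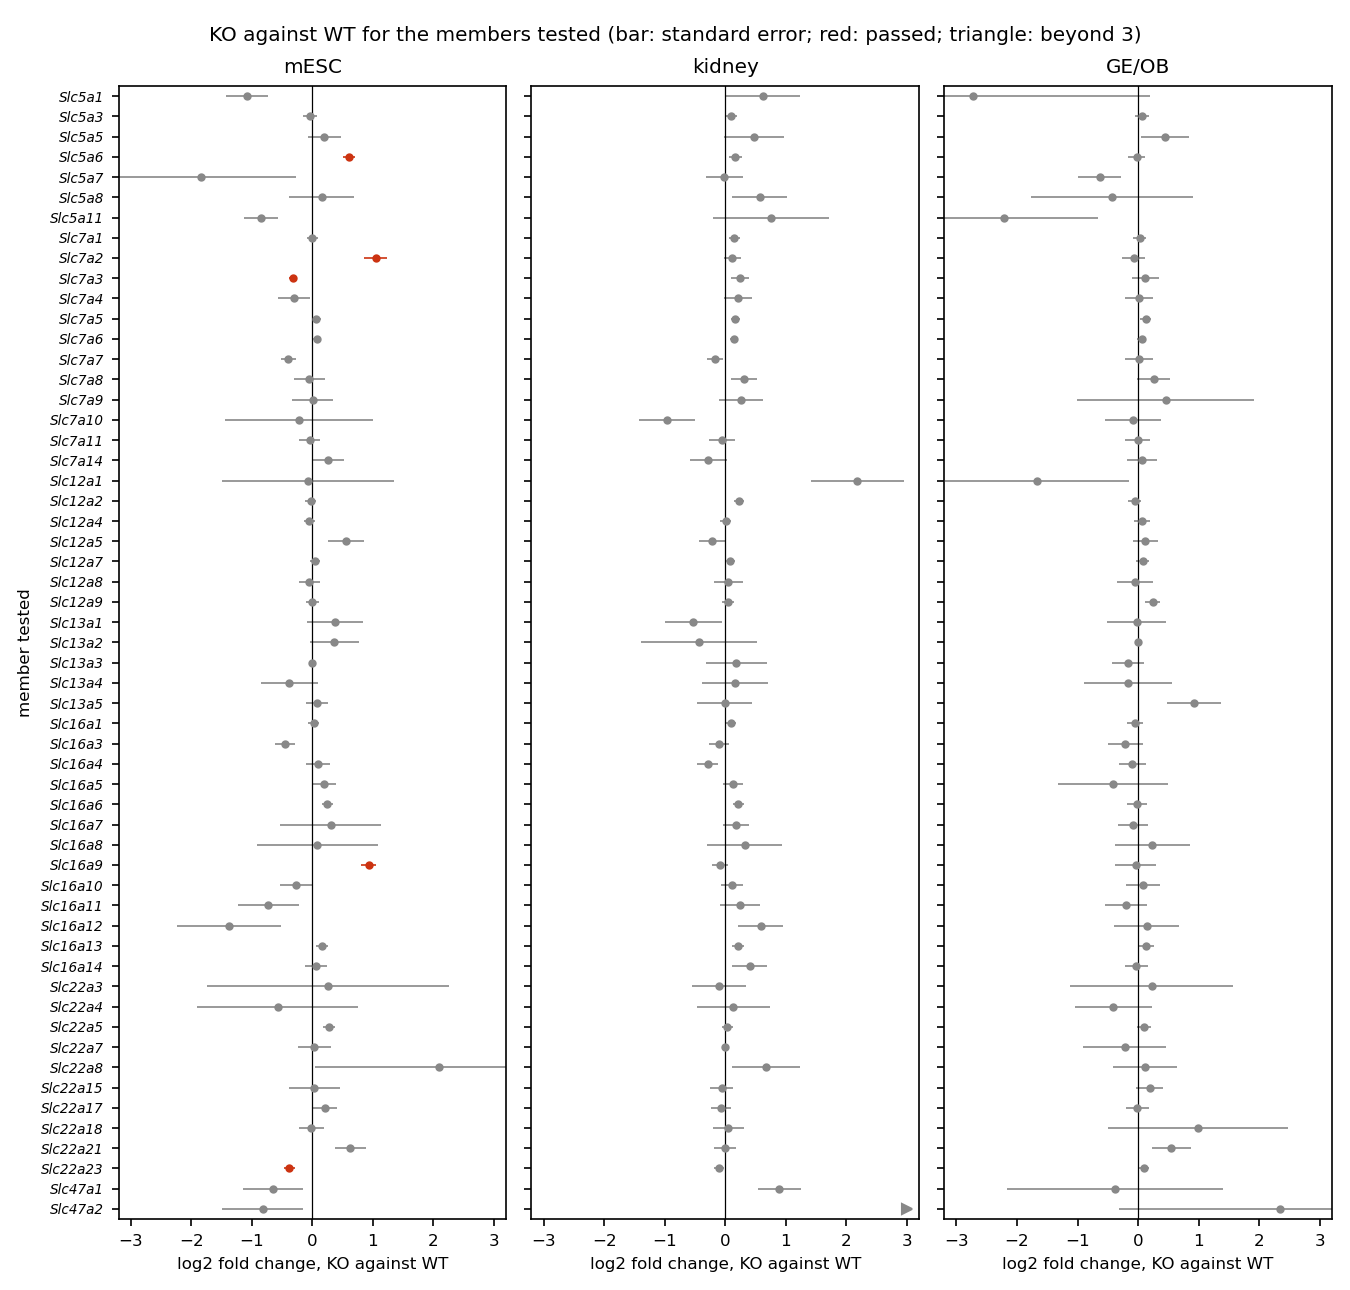
Log2 fold change of KO against WT from edgeR, with its standard error, for the members tested (rows, without those not reported here) in mESC, kidney and GE/OB (panels). The 5 members that passed, all in mESC, are red, and a triangle marks *Slc47a2* in the kidney, which lies beyond 3 on a few counts and did not pass.

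The KO effect in mESC was then set against that in each tissue within the same fit. Its mESC side compares wells of 1 clone per genotype and the other side embryos, so clone and genotype cannot be told apart in it. The effect in *Slc16a9* was larger in mESC than in the kidney by 1.02 on the log2 scale (SE 0.18, adjusted p = 0.0046 from edgeR), the only 1 of 58 members to pass, where 2.24% of all tested genes did. *Slc16a9* had 1.95, 2.04 and 1.88 TPM in WT and 1.91, 1.44 and 2.37 TPM in KO kidneys, which overlapped (log2 fold change −0.09, SE 0.13). In GE/OB it had 0.38 and 0.33 TPM in WT and 0.31 and 0.25 TPM in KO, from 9 to 18 counts per library. Between mESC and GE/OB, 0 members passed with edgeR, where 1.08% of all genes did. An unadjusted p under 0.05 was found for 5 members (8.62%), beside 10.6% of all genes. DESeq2 called 3, *Slc5a6*, *Slc7a2* and *Slc22a23*, where it called 349 of 13393 genes. The smallest adjusted p from edgeR there was 0.0608 for *Slc7a2*, whose effect was larger in mESC by 1.12 (SE 0.27). For *Slc16a9* the difference between mESC and GE/OB was 0.97 (SE 0.36, adjusted p = 0.368).

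Proteins that work with these carriers, or regulate them, were counted from a list of 27 genes, of which 26 were tested. In mESC 5 fell, where 4.59% of all tested genes did, and 0 rose, where 2.27% did, and none passed in the kidney or GE/OB with edgeR. The 5 were *Emb*, the chaperone of *Slc16a7* and related carriers (41.6 ± 0.52 TPM in WT and 29.8 ± 1.3 TPM in KO wells, SD, n = 3 each), *Slc9a3r1* and *Slc9a3r2*, scaffolds that hold carriers at the membrane (log2 fold changes −0.30 and −0.47), and *Wnk3* and *Stk39*, kinases that set the activity of Slc12 cotransporters (−0.42 and −0.69). *Bsg* and *Slc3a2* had log2 fold changes of 0.03 and −0.05. Of 12 genes of the amino acid response, the program that raises carriers when amino acids are short, *Chac1* and *Phgdh* fell in mESC (log2 fold changes −0.40 and −0.26, adjusted p = 0.0272 and 0.0372 from edgeR) and 0 rose, beside the same shares of all genes. *Atf4*, its main factor, had 352 ± 5.6 TPM in WT wells and 340 ± 8.3 TPM in KO wells (SD, n = 3 each). The median log2 fold change was −0.10 for the partners and −0.19 for the amino acid response, beside −0.03 over all genes.

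On chromosome 3, which carries *Peril*, lie 6 members, and the nearest, *Slc7a14*, is 3.46 Mb away at chr3:31202858-31310378. In GE/OB it had 3.19 and 4.34 TPM in WT and 4.93 and 3.11 TPM in KO embryos, which overlapped, and passed in no tissue, with log2 fold changes of 0.26 (SE 0.27) (mESC), −0.28 (SE 0.30, kidney) and 0.06 (SE 0.25, GE/OB). The others, *Slc7a11*, *Slc7a12*, *Slc22a15*, *Slc16a1* and *Slc16a4*, lie 15.1 to 72.5 Mb from *Peril*, and none of those tested passed in any tissue.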

How the data were processed

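Polyadenylated RNA of 16 libraries was sequenced. Gene levels were estimated by the authors with RSEM, through bowtie2 alignment against mm10 with *LacZ* added, and the deposited files hold estimated (expected) counts, TPM values and effective lengths for 26759 genes. TPM as deposited by the authors is scaled to the total of each library, and the estimated counts deposited are not normalized. They were rounded and fitted with edgeR 4.0.16 in R 4.3.3 (TMM factors, filterByExpr by group, 1 coefficient per tissue and genotype, quasi-likelihood test), over 17459 genes, with Benjamini-Hochberg adjustment over all of them. Each standard error (SE) was taken from the fold change and its F statistic. TPM means are given with SD. Tissue contrasts average the WT and KO coefficients. Fold limits were 2 and the adjusted p threshold 0.05.

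Members with a mean of at least 1 TPM in a group, members called and the 3 of smallest p per KO contrast are given with values. *Slc7a14* and *Slc7a11* also stand for their position or promoter. The families, and so the members, and the lists and tests were chosen with earlier results of these data known, although the rule itself uses no measured value. All 81 members were placed by GENCODE vM21 (GRCm38), and promoters came from RefSeq, shown only where the window holds at most 1 annotated exon base. *Peril* is listed in RefSeq as a synonym of *Gm38509*. Counts that are not whole in at least 1 library occurred in 27 members. Among these, *Slc7a7*, *Slc7a11*, *Slc12a8*, *Slc13a1* and *Slc16a6* had them in all 16 libraries, as *Slc22a5* and *Slc22a21* did. Of the members called in mESC, *Slc5a6*, *Slc7a2* and *Slc16a9* had them in 12, 10 and 5 libraries. Wells share a clone, and embryos of a tissue share a litter. The fit was run on simulated counts with the same spread between replicates in every tissue, and changes only in well-counted genes. The spread of the libraries here differs between tissues, so that run does not show how the fit does on them. Alternatives used DESeq2 1.42.0, limma 3.58.1, other filters, factors, covariates and libraries left out. Figures were drawn with matplotlib 3.10.9. The MPRA and Hi-C data were not used here, and some members, kept in counts and sums, are not reported here by name.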

Additional observations from a re-analysis of the deposited data

Results flagged for a closer look

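The KO effect in *Slc16a9* differed between mESC and the kidney by a test of the difference itself, by 1.02 on the log2 scale (SE 0.18, adjusted p = 0.0046 from edgeR). All 3 KO wells of mESC lay above all 3 WT wells, and the KO kidneys lay on both sides of the WT kidneys. The call held under each alternative tried, with adjusted p from 0.000152 to 0.0224. Only 1 of 58 members passed, beside 2.24% of all tested genes.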

How the results depend on the processing

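In mESC, 5 members passed, and 4 to 5 with a library left out. DESeq2 called 7, among them all 5 and *Slc5a11*. With gene length offsets DESeq2 called 5, with *Slc22a21* in place of *Slc22a23*. Fitted on mESC libraries alone, 12 passed, among them all 5 of the main fit. With well number as a replicate block there, 12 passed as well. The wells were not paired by number (correlation of deviations 0.0055, 0.016 and 0.0452 for wells 1, 2 and 3). For the difference between mESC and kidney, 2 members passed in place of 1 without the filter on low counts and with DESeq2, and 1 to 2 with a library left out (*Slc7a2* was added without KO well 3, *Slc5a6* without kidney WT 3 and *Slc7a3* without kidney KO 7). For mESC against GE/OB, DESeq2 gave 3 in place of 0, and 0 to 1 passed with a library left out (*Slc7a2* without KO well 3, *Slc5a6* without GE/OB KO 2). In the kidney and in GE/OB, 0 members passed under every alternative tried. Of 6 members high in the kidney, 2 held at a 4-fold limit and 1 with limma on log2(TPM + 1), and 6 to 8 were called with a library left out. For GE/OB, 13 became 23 with no fold limit and 6 at a 4-fold limit, and 11 to 14 with a library left out. For mESC, 16 became 10 at a 4-fold limit and 10 with limma on log2(TPM + 1), and 15 to 18 with a library left out. The cause was not tested beyond these limits being stricter or looser by construction. Of the values of single members under alternatives, 70 of KO contrasts kept their call and 5 lost it, all of *Slc22a23*, and 729 of tissue contrasts kept it and 32 lost it. None turned its direction. Over all tested genes, calls in mESC went from 1198 to 3561 in that tissue alone, those in the kidney from 39 to 10 and those in GE/OB from 11 to 6. With DESeq2 mESC gave 1644, the kidney 76 and GE/OB 19. By the same method the differences of mESC from kidney and GE/OB gave 704 and 349 in place of 391 and 188. Genes near 0 TPM are limited by depth.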
